A study of Mus musculus with 28 samples.

Results

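The Hox genes of mouse tail tendon were examined as 1 gene family in bulk RNA-sequencing libraries of Fosl-2(Tg) and wild-type (WT) mice. Members were the protein-coding genes of the 4 Hox clusters, chosen by symbol. The rule found 39 genes among the 25719 genes of the count tables, of which 11 lie in the HoxA, 10 in the HoxB, 9 in the HoxC and 9 in the HoxD cluster. Each of the 28 libraries was made from tail tendon fascicles of 1 C57BL/6 mouse, ground as whole tissue, so that RNA of every cell type in the fascicle was measured. In Fosl-2(Tg) mice a randomly inserted vector expresses murine *Fosl2*, an AP-1 family member, from the promoter of the major histocompatibility complex class I gene H2Kb, and WT mice were nontransgenic animals of the same breeding. The early cohort held 7 WT and 8 Fosl-2(Tg) mice of 6 to 8 weeks, and the established cohort held 6 WT and 7 Fosl-2(Tg) mice older than 14 weeks. All 15 early mice were male whereas the 13 established mice were 11 females and 2 males, 1 of each genotype, so that stage and sex cannot be told apart. The comparisons address which Hox genes tail tendon expresses, whether their levels differ between cohorts, and whether they differ between genotypes.

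Hox genes encode homeodomain transcription factors that give cells a position along the body axis. The genes of a cluster stand in the order in which they are used from head to tail, and genes at the same place in different clusters form a paralogue group, numbered from 1 at the anterior end to 13 at the posterior end. Adult fibroblasts and other mesenchymal cells keep a Hox profile that marks the region they came from. Groups 9 to 13 are the posterior or *Abd-B*-like groups, and group 13 genes mark the end of the axis, the distal limb and the urogenital outlet.

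The promoters of 3 members are shown because the results turn on them. *Hoxa13* and *Hoxb13* were lower in established Fosl-2(Tg) than WT tendon, as was *Hoxb9*, and *Hoxd13* is the paralogue of *Hoxa13* and *Hoxb13* that was nearly without reads. Each sequence is the 250 bases before the annotated start of the gene's canonical transcript, read 5′ to 3′ on the gene's strand from the GRCm39 genome, and capitals mark CG dinucleotides. The genes themselves are *Hoxa13* (ENSMUSG00000038203, chr6:52234602-52237822, minus strand), *Hoxb9* (ENSMUSG00000020875, chr11:96162150-96167421, plus strand), *Hoxb13* (ENSMUSG00000049604, chr11:96085106-96088273, plus strand) and *Hoxd13* (ENSMUSG00000001819), and no exon of a protein-coding gene overlaps the 3 windows.
Hoxa13 (chr6:52237823-52238072, minus strand): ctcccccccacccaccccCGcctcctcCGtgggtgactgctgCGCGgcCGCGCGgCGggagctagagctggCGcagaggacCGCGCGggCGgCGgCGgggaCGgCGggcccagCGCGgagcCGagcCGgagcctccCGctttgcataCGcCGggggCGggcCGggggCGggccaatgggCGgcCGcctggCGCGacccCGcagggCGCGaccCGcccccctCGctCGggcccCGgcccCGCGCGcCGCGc
Hoxb13 (chr11:96084856-96085105, plus strand): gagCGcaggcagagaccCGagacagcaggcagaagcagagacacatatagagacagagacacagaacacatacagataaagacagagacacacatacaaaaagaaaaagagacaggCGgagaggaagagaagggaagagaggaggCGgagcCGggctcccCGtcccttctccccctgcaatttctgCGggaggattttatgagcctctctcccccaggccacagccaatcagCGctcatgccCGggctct
Hoxd13 (chr2:74498404-74498653, plus strand): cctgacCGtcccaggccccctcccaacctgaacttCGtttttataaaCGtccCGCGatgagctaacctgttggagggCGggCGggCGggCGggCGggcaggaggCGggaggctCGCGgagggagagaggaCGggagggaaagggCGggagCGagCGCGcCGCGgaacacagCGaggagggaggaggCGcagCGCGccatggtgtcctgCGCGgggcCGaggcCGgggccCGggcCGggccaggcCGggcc
The *Hoxa13* window held 43 CG dinucleotides and 84.4% G and C, the *Hoxb13* window 9 and 55.6%, and the *Hoxd13* window 31 and 74.4%. The window of the nearly silent *Hoxd13* held more CG dinucleotides than that of *Hoxb13* and fewer than that of *Hoxa13*. The *Hoxb9* window, which is not printed, held 20 and 60.8%. Over the 39 members the median was 12 CG dinucleotides (range 1 to 43), beside a median of 8 over the same window of 21571 protein-coding genes. A loose form of the AP-1 motif, TGANTCA, was searched, in which N is any base and which reads the same on both strands. It was found before 2 members, *Hoxb2* and *Hoxc10*, or 5.13% of the family, beside 6.18% of all 21571 windows. The related motif TGACGTCA, also its own reverse complement and not containing the first, was found before 1 member, *Hoxc10*, beside 1.69% of all windows. Neither motif was present in the 3 windows printed here.

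Reads counted on genes summed to between 9645598 and 66894396 per library. The tendon identity of the samples was read from 12 markers, which had reads in every group. Their summed level was 193870 to 548680 CPM, the counts relative to the scaled library total, in early WT, 252770 to 618440 in early Fosl-2(Tg), 101600 to 192270 in established WT and 7231 to 81176 in established Fosl-2(Tg) mice. Skeletal muscle markers varied from 160 to 57935 summed CPM between mice, and 6 libraries held at least 20000 CPM of them. Keratinocyte markers summed to 23.2 to 59.7 CPM, a sum similar to the level of single posterior Hox genes, and hair follicle markers to 1.62 to 5.34 CPM, with *Krt77* and *Krt33a* at 0 in every library. *Fosl2* itself, counted over transgene and endogenous gene together, had a median of 75.8 CPM in early WT, 87.1 in early Fosl-2(Tg), 105 in established WT and 145 in established Fosl-2(Tg) mice. Between genotypes *Fosl2* was not called in the early (log2 fold change 0.20 ± 0.24 SE, FDR = 0.918) or the established cohort (0.38 ± 0.15, FDR = 0.141, edgeR quasi-likelihood test with Benjamini-Hochberg adjustment).

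Of the 39 members, 26 had a mean of at least 1 CPM over the 28 mice, 8 of them in HoxA, 9 in HoxB, 9 in HoxC and none in HoxD. To compare genes of different length, levels are given below as CPM per kilobase (kb) of exon. The highest mean over all mice was that of *Hoxb9* (15.0 CPM per kb), followed by *Hoxa13* (13.1), *Hoxb13* (11.5), *Hoxa10* (8.53), *Hoxb6* (8.49), *Hoxc10* (7.80), *Hoxa11* (7.76), *Hoxc11* (6.99) and *Hoxc13* (5.60). With the exception of *Hoxb6*, these 9 genes belong to the posterior groups 9 to 13. The ranges of neighbouring genes in this order overlapped widely between mice, as for *Hoxb9* (2.21 to 35.9 CPM per kb) and *Hoxa13* (5.10 to 19.5). The gene in first place was *Hoxb9* in both early groups, with medians of 17 CPM per kb in WT and 24.5 in Fosl-2(Tg) mice, and *Hoxa13* in both established groups, with medians of 17.8 in WT and 10.1 in Fosl-2(Tg) mice.

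**Figure D1:**
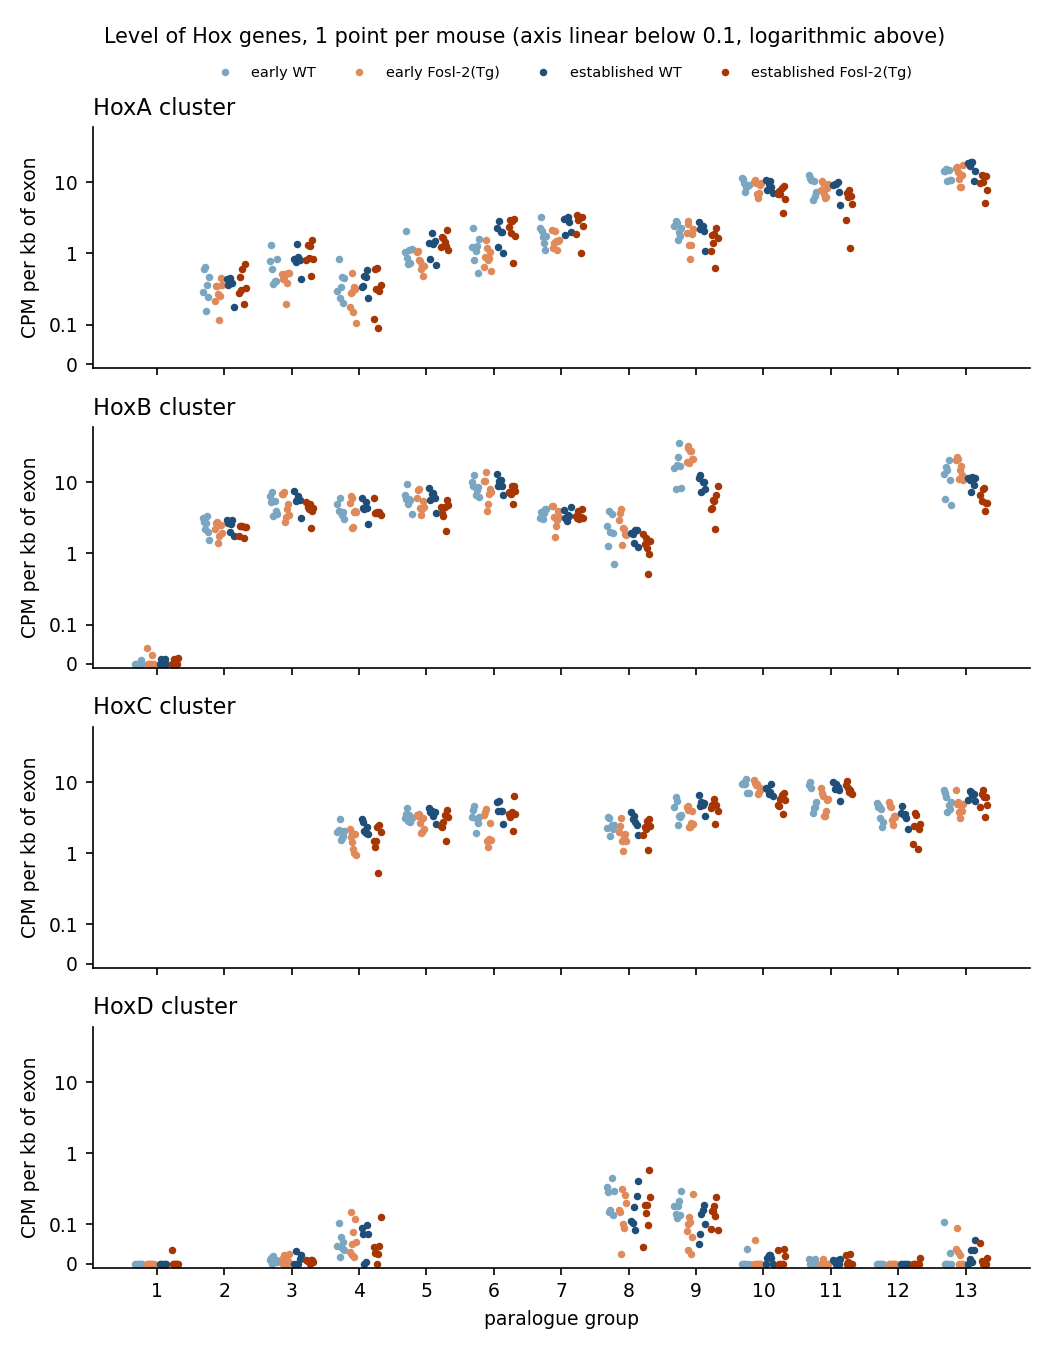
Level of Hox genes in CPM per kb of exon (vertical axis, linear below 0.1 and logarithmic above) by paralogue group (horizontal axis), with 1 point per mouse, coloured by group, and 1 panel per cluster. HoxA levels are higher toward group 13, HoxB and HoxC are expressed over nearly their whole length, and HoxD lies below 1 CPM per kb in every mouse.

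In HoxA, levels were higher toward the posterior end of the cluster. The anterior *Hoxa2*, which patterns the hindbrain, had a mean of 0.365 CPM per kb and *Hoxa3* 0.735. *Hoxa5*, a regulator of the neck and thorax, had 1.15, *Hoxa7* 2.16 and *Hoxa9* 1.93. *Hoxa10* and *Hoxa11*, which pattern the lumbosacral region and the proximal and middle limb, had 8.53 and 7.76, and *Hoxa13*, the last gene of the cluster, had 13.1. *Hoxa4* (0.353), *Hoxa9* and *Hoxa11* were exceptions to this order, each lying below the gene before it. *Hoxa10* was at 24.4 to 37.9 CPM (median 30.1) in early WT, 19.9 to 36.0 CPM (median 31.4) in early Fosl-2(Tg), 23.6 to 35.4 CPM (median 29.8) in established WT and 12.2 to 29.2 CPM (median 22.9) in established Fosl-2(Tg) mice. *Hoxa11* was at 13 to 29.4 CPM (median 24.1) in early WT, 13.9 to 24.6 CPM (median 18.7) in early Fosl-2(Tg), 11.1 to 23.4 CPM (median 21.7) in established WT and 2.74 to 18 CPM (median 14.6) in established Fosl-2(Tg) mice. The groups overlapped for both genes.

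In HoxB, *Hoxb9* and *Hoxb13* were the highest members, and *Hoxb13*, a regulator of tail length in mice, is separated from the rest of the cluster by a long interval. *Hoxb6* was at 14.3 to 29.9 CPM (median 19.7) in early WT, 9.06 to 32.4 CPM (median 17.9) in early Fosl-2(Tg), 15.6 to 30.3 CPM (median 22.5) in established WT and 11.5 to 20.9 CPM (median 17) in established Fosl-2(Tg) mice, with overlap between all groups. *Hoxb13* was at 10.8 to 46.0 CPM (median 29.5) in early WT mice, a range that took in those of the other 3 groups except for the upper end of early and the lower end of established Fosl-2(Tg) mice. The genes *Hoxb2* to *Hoxb8* had means between 2.00 (*Hoxb8*) and 8.49 CPM per kb (*Hoxb6*). *Hoxb1*, a hindbrain gene, had 7 reads in 28 libraries, never more than 1 in a library. In HoxC, which has no member of groups 1 to 3, all 9 genes were expressed, from *Hoxc4* (1.86 CPM per kb) to *Hoxc10* (7.80). In WT mice *Hoxc10* was at 14.4 to 23.1 CPM (median 19.4) in the early and 13.3 to 19.6 CPM (median 15.6) in the established cohort, and the groups overlapped. *Hoxc13*, which is known from hair and nail, had a mean of 5.60 CPM per kb and a range of 3.16 to 7.86. Hair follicle markers summed to at most 5.34 CPM in the same mice. By group, *Hoxc13* was at 9.48 to 18.9 CPM (median 13) in early WT, 7.79 to 19.3 CPM (median 11.8) in early Fosl-2(Tg), 13.4 to 18.7 CPM (median 16.7) in established WT and 7.94 to 19.1 CPM (median 15.4) in established Fosl-2(Tg) mice, and all 4 groups overlapped. *Hoxc11* was at 7.48 to 20.4 CPM (median 10.8) in early WT, 6.78 to 16.6 CPM (median 11.6) in early Fosl-2(Tg), 11.2 to 20.7 CPM (median 16.8) in established WT and 14 to 21.1 CPM (median 15.8) in established Fosl-2(Tg) mice.

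HoxD was nearly without reads. Its 9 genes together had 729 reads in the 28 libraries, which is 0.324% of the 225348 Hox reads. *Hoxd8* was the highest, with 0.204 CPM per kb and 347 reads, followed by *Hoxd9* with 0.137 and 196 reads and *Hoxd4* with 0.0549 and 92 reads, although 52.0% of the *Hoxd4* exon bases are shared with *Hoxd3* and the annotated gene *Gm28230*. *Hoxd8* was at 0.393 to 1.33 CPM (median 0.832) in early WT, 0.0752 to 0.913 CPM (median 0.454) in early Fosl-2(Tg), 0.251 to 1.20 CPM (median 0.423) in established WT and 0.128 to 1.69 CPM (median 0.549) in established Fosl-2(Tg) mice. *Hoxd9* was at 0.271 to 0.641 CPM (median 0.400) in early WT, 0.0534 to 0.584 CPM (median 0.204) in early Fosl-2(Tg), 0.108 to 0.408 CPM (median 0.264) in established WT and 0.190 to 0.541 CPM (median 0.337) in established Fosl-2(Tg) mice. The highest *Hoxd4* value of each group was 0.312 CPM in early WT, 0.445 in early Fosl-2(Tg), 0.291 in established WT and 0.381 in established Fosl-2(Tg) mice, with medians of 0.133, 0.159, 0.223 and 0.0845 CPM. The groups overlapped for all 3 genes. *Hoxd13*, the limb digit and urogenital paralogue of group 13, had 25 reads in 14 of 28 libraries and at most 4 in a library. Its highest value was 0.266 CPM in early WT, 0.223 in early Fosl-2(Tg), 0.150 in established WT and 0.128 in established Fosl-2(Tg) mice, and every group held mice at 0. *Hoxd1* and *Hoxd12* had 1 read each among the 617076180 reads counted on all genes. In a single library, 3 reads, the limit that a count of 0 allows, correspond to between 0.0418 and 0.334 CPM, which covers counting error only. Beside the cluster, *Evx2*, the homeobox gene next to *Hoxd13* at 8753 bases, had 2 reads in all. The silence did not extend to *Mtx2*, 60653 bases away at 5.98 to 17 CPM, or *Lnpk*, 88875 bases away at 19.6 to 35.2 CPM.

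Other members also share exon bases with annotated genes, and since the libraries do not mark strand, reads on shared bases cannot be told apart. In the annotation used here 22 of 39 members overlap some other gene and 9 do so over more than 20% of their exon bases, among them *Hoxb3* (51.5%), *Hoxa11* (43.6%), *Hoxb6* (30.8%), *Hoxa3* (23.7%) and *Hoxa7* (20.3%). Counting only partners that are in the count tables, 6 members overlap another gene. *Hoxa13*, *Hoxb13* and *Hoxa5* share no exon base with any annotated gene, and *Hoxb9* shares 1.55% of its exon bases.

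Summed over the 39 genes, the Hox level was 107 to 173 CPM per kb in early WT (median 148), 109 to 184 in early Fosl-2(Tg) (median 135), 108 to 168 in established WT (median 146) and 62.8 to 127 in established Fosl-2(Tg) mice (median 113). The groups overlapped, and the lowest value of all belonged to replicate 5 of the established Fosl-2(Tg) group, its 1 male. That mouse had the lowest level of its group for 24 of the 29 members tested in the established cohort, and also the lowest sum of tendon markers (7231 CPM). In homogenised tissue, fewer cells of a type and less RNA per cell cannot be told apart.

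Per kb of exon, groups 9 to 13 held more than 50% of the summed level in every mouse. Per kb of coding sequence 2 of the 7 established Fosl-2(Tg) mice fell below 50%, the lowest at 48.9%. Per kb of exon the share was 61.7% to 70.7% in early WT (median 64.1%), 65.0% to 73.6% in early Fosl-2(Tg) (median 69.7%), 58.8% to 65.0% in established WT (median 60.9%) and 54.5% to 60.9% in established Fosl-2(Tg) mice (median 56.1%). Each established Fosl-2(Tg) mouse thus lay below each early Fosl-2(Tg) mouse, while the 2 WT groups overlapped, and so did the 2 established genotypes. Most of the fall in Fosl-2(Tg) mice lay in group 9, the group of *Hoxb9*. Its mean share was 21.3% in early and 10.6% in established Fosl-2(Tg) mice. In the same mice group 10 held 12.3% and 11.5%, group 12 2.58% and 2.22%, and group 13 23.8% and 20.3%. Group 11 went the other way, with 9.45% and 12.7%. Within HoxA, groups 9 to 13 held 79.4% to 89.2% in early WT, 82.4% to 90.7% in early Fosl-2(Tg), 77.8% to 87.0% in established WT and 72.8% to 75.6% in established Fosl-2(Tg) mice, the last group lying below the other 3 without overlap. Within HoxB the shares were 30.4% to 62.8%, 50.7% to 67.4%, 30.5% to 45.1% and 25.1% to 34.5% in the same order. Within HoxC they were 68.5% to 77.3%, 70.1% to 80.0%, 67.7% to 72.2% and 63.1% to 77.9%. Established Fosl-2(Tg) mice overlapped both WT groups in HoxB and the other 3 groups in HoxC. The shares are sums over members chosen for their family and were not tested. By cluster, HoxA held 21.2% to 34.9% of the sum over all mice, HoxC 21.1% to 37.4%, HoxB 31.0% to 56.4% and HoxD 0.0970% to 0.718%.

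**Figure D2:**
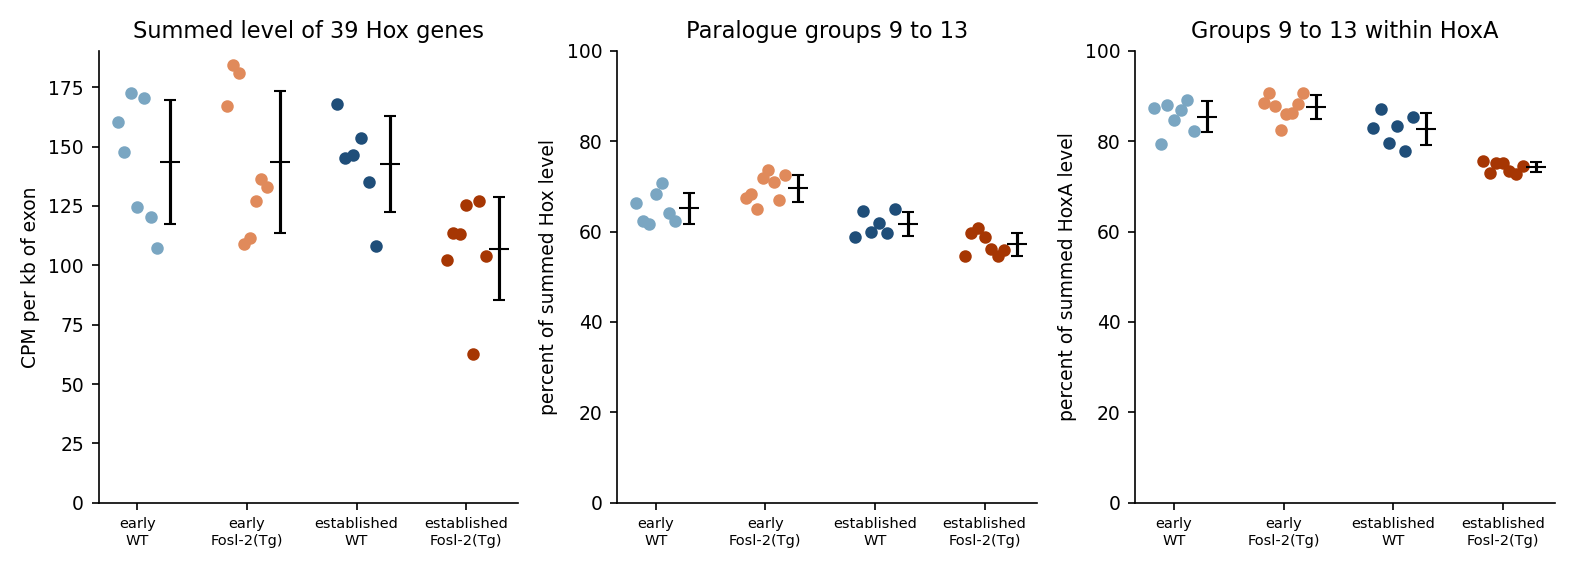
Summed level of the 39 Hox genes in CPM per kb (left), percent of that sum held by paralogue groups 9 to 13 (middle) and percent of the summed HoxA level held by groups 9 to 13 (right), with 1 point per mouse and the mean ± SD of each group in black. Established Fosl-2(Tg) mice lie at 54.5% to 60.9% in the middle panel and at 72.8% to 75.6% in the right panel.

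No Hox gene passed the test between genotypes in the early cohort. Enough reads for a test were present for 27 members, and 0 of them passed an FDR of 0.05 with edgeR's quasi-likelihood test, 2 had an unadjusted p under 0.05, and DESeq2 also called 0. Over all 15138 genes tested, 0.0396% were called. The log2 fold changes of the 27 members (Fosl-2(Tg) minus WT) lay between -0.58 (*Hoxa3*) and 0.46 (*Hoxb9*), with 22 below 0 and a median of -0.19, beside a median of -0.01 over all genes. *Hoxb9* was at 21.8 to 97.2 CPM in WT (median 46.0) and 50.5 to 86.9 CPM in Fosl-2(Tg) mice (median 66.2), and the ranges overlapped. *Hoxa13* was at 25.8 to 38.3 CPM in WT (median 36.3) and 21.6 to 43.6 CPM in Fosl-2(Tg) mice (median 33.5).

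In the established cohort, 3 posterior genes were lower in Fosl-2(Tg) than in WT tendon, namely *Hoxb9*, *Hoxb13* and *Hoxa13*, and no member was higher. They were 3 of 29 members tested (10.3%), beside 6.51% of all 15862 genes called in either direction and 3.37% called lower. *Hoxb9*, which acts in the thoracic and lumbar region, was at 19.9 to 34.7 CPM in WT (median 27.3) and 5.99 to 23.7 CPM in Fosl-2(Tg) mice (median 14.8). Of the 7 Fosl-2(Tg) mice, 6 lay below the lowest WT mouse, and the log2 fold change was -0.90 ± 0.24 (SE, FDR = 0.0415, edgeR). *Hoxb13* was at 16.4 to 26.4 CPM in WT (median 24.8) and 8.88 to 18.4 CPM in Fosl-2(Tg) mice (median 12.1). For this gene 5 of 7 Fosl-2(Tg) mice lay below the lowest WT mouse, with a log2 fold change of -0.76 ± 0.17 (FDR = 0.0232, edgeR). *Hoxa13*, which shapes the hindgut, the urogenital tract and the digits, was at 26.3 to 48.9 CPM in WT (median 44.7) and 12.8 to 31.6 CPM in Fosl-2(Tg) mice (median 25.4). Here 4 of 7 Fosl-2(Tg) mice lay below the lowest WT mouse and 7 of 7 below the WT median. That lowest WT mouse was the male, which also had the highest sum of muscle markers of all mice. The log2 fold change of *Hoxa13* was -0.72 ± 0.20 (FDR = 0.0465, edgeR).

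**Figure D3:**
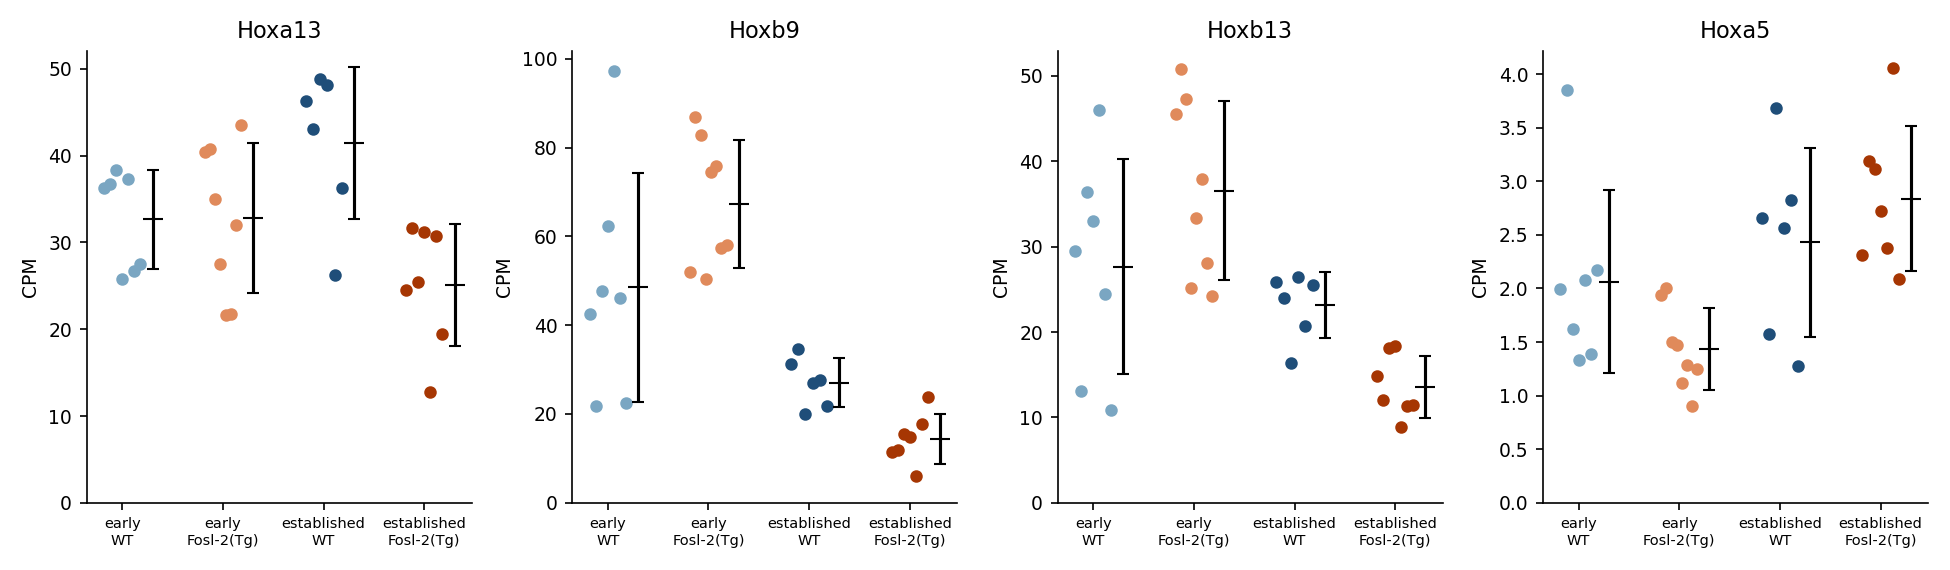
CPM (vertical axes, starting at 0) of *Hoxa13*, *Hoxb9*, *Hoxb13* and *Hoxa5* in each mouse, with 1 point per mouse and the mean ± SD of the group in black. The established Fosl-2(Tg) mice are low for the first 3 genes, at 12.8 to 31.6, 5.99 to 23.7 and 8.88 to 18.4 CPM, and not for *Hoxa5*, at 2.09 to 4.06 CPM.

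The values of the other members tested in the established cohort lay between -0.67 (*Hoxa11*) and 0.27 (*Hoxa3*), and none passed the threshold. All 11 tested members of groups 9 to 13 had a log2 fold change below 0 (median -0.51), as had 11 of 14 of groups 4 to 8 (median -0.19) and 2 of 4 of groups 1 to 3 (median -0.01), beside a median of 0.01 over all genes. By cluster, all 9 members of HoxB and all 9 of HoxC were below 0, and 6 of 10 of HoxA. The members nearest to the threshold were *Hoxc10* (-0.51 ± 0.15, FDR = 0.0567, edgeR) and *Hoxb5* (-0.63 ± 0.21, FDR = 0.0839, edgeR). *Hoxc13* and *Hoxc11* showed log2 fold changes of -0.22 ± 0.17 and -0.01 ± 0.14.

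The established calls stood close to the threshold. Without replicate 5 of the Fosl-2(Tg) group they were again 3, with log2 fold changes of -0.77 for *Hoxb9*, -0.69 for *Hoxb13* and -0.61 for *Hoxa13*, and they were 4 without Fosl-2(Tg) replicate 6. The count was 2 without WT replicate 3, WT replicate 5 or Fosl-2(Tg) replicate 7, and 1 without WT replicate 2 or 6 or Fosl-2(Tg) replicate 1, 2 or 3. It was 0 without WT replicate 1, without WT replicate 4 (5 and 6 members with an unadjusted p under 0.05, edgeR), and without the 2 established libraries rich in muscle markers (12 members with an unadjusted p under 0.05, edgeR). Both of those libraries were WT, replicates 5 and 6, so that only the WT group became smaller. Replicate 5 is the WT male, which the fit without the 2 established males also left out. This male had the highest sum of muscle markers of all mice (57935 CPM), and the Fosl-2(Tg) male the highest of its group (16535 CPM). WT replicate 6, a female, had 36478 CPM. The fits on sex and on muscle markers are therefore not separate checks, and sex and muscle content were not tested apart. In the fit without the libraries rich in muscle markers the log2 fold changes were -0.96 for *Hoxb9*, -0.77 for *Hoxb13* and -0.89 for *Hoxa13*. The median over the 29 members was -0.45 there, in place of -0.34 in the main fit. That median was -0.23 without Fosl-2(Tg) replicate 5, -0.25 without the 2 established males and -0.39 with sex as a covariate. The fit with sex as a covariate, which rests on these 2 males, called *Hoxb9* (FDR = 0.0245), *Hoxb13* (FDR = 0.0130) and *Hoxa13* (FDR = 0.00507, edgeR). Over the 23 alternatives the log2 fold changes ranged from -1.11 to -0.77 for *Hoxb9*, -0.85 to -0.69 for *Hoxb13* and -0.89 to -0.61 for *Hoxa13*. Of these 23, *Hoxb9* and *Hoxa13* each lost the call in 11 and *Hoxb13* in 4. Tendon markers moved with these genes, since all 12 had a negative log2 fold change in the established cohort (median -1.43, 5 called lower). *Tnmd*, a tendon membrane protein, was at 635 to 1476 CPM in WT and 21.1 to 512 CPM in Fosl-2(Tg) mice. All 19 skeletal muscle markers had a negative value as well (median -1.77, 0 called, 4 with an unadjusted p under 0.05, edgeR). Cartilage and bone markers summed to 435 to 589 CPM in WT and 42.7 to 440 CPM in Fosl-2(Tg) mice, with 3 of 6 tested called lower, and erythroid markers to 8.94 to 20.1 and 10.3 to 127 CPM, with 0 of 4 called (3 with an unadjusted p under 0.05, edgeR). Of 12 macrophage markers 1 was called higher and of 10 mural cell markers 1 lower. The part of these markers in the Hox result was not tested.

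**Figure D4:**
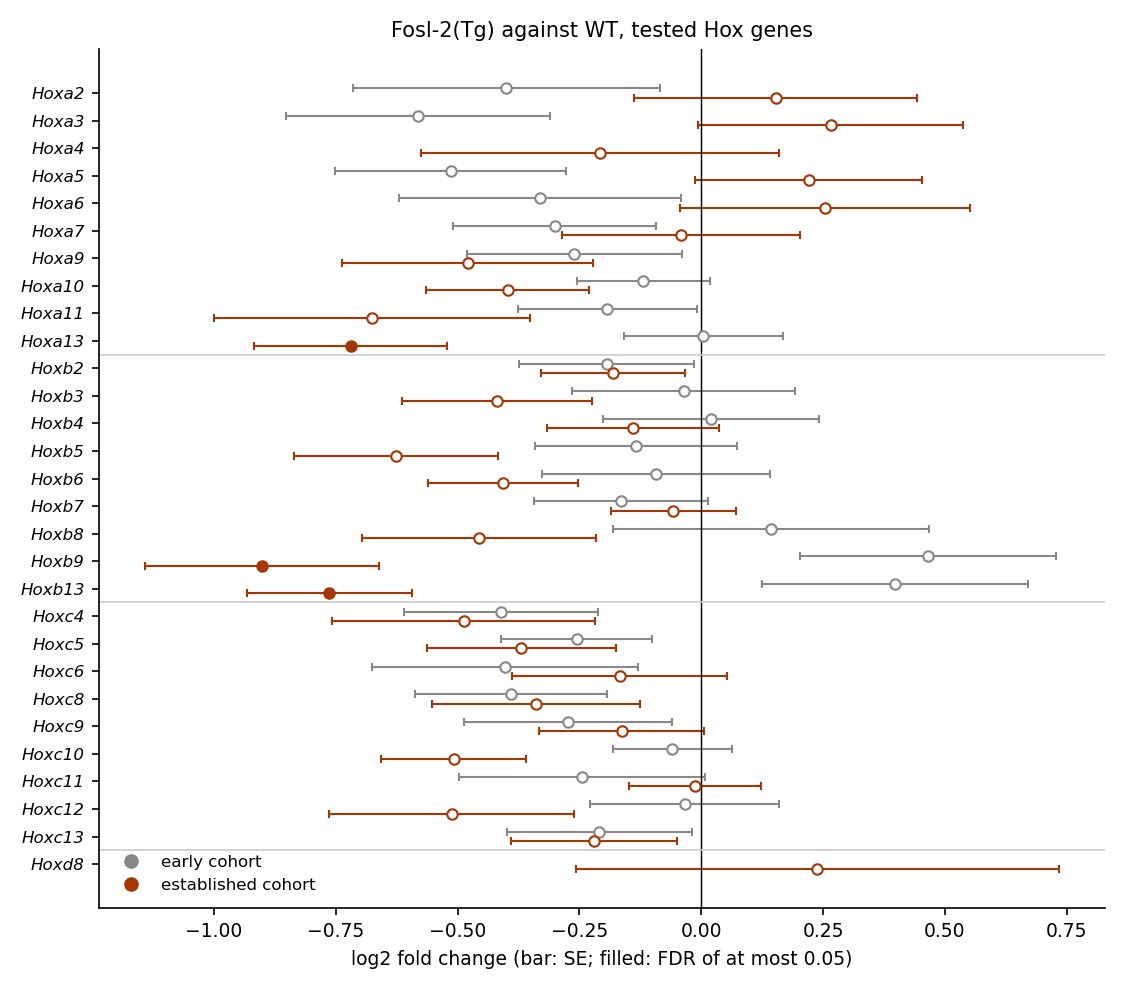
Log2 fold change of Fosl-2(Tg) against WT (horizontal axis) for each Hox gene tested, in the early cohort (grey) and the established cohort (red), with SE bars and filled points for an FDR of at most 0.05. The filled points are *Hoxa13*, *Hoxb9* and *Hoxb13* in the established cohort, at -0.72, -0.90 and -0.76, and none is filled in the early cohort.

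Whether the genotype difference itself changed between cohorts was tested as an interaction over the 28 mice. *Hoxb9* (log2 difference of the genotype effects -1.37 ± 0.38, FDR = 0.0287, edgeR) and *Hoxb13* (-1.17 ± 0.35, FDR = 0.0397, edgeR) passed, both more negative in the established cohort. These were 2 of 29 members (6.90%), beside 7.43% of 16082 genes called in either direction and 4.00% called more negative. Their early log2 fold changes were 0.46 ± 0.26 and 0.40 ± 0.27, opposite in sign to the established ones but not called. *Hoxa13* showed an interaction of -0.73 ± 0.27 (FDR = 0.0843, edgeR) and gained the call in 1 of 37 alternatives. *Hoxb9* and *Hoxb13* passed again with sex as a covariate (log2 differences -1.44, FDR = 0.0188, and -1.19, FDR = 0.0323, edgeR). With the replicate number as a block *Hoxb9* passed and *Hoxb13* did not (log2 differences -1.51, FDR = 0.0406, and -1.16, FDR = 0.0582, edgeR). Without the 2 established males 0 passed (5 with an unadjusted p under 0.05, edgeR), as without the 6 libraries rich in muscle markers (also 5) and without established WT replicate 2 (4), where the log2 difference of *Hoxb9* was -1.24, -1.56 and -1.29. With single libraries left out, *Hoxb9* alone was called in 16 of 28 cases. Of 37 alternatives *Hoxb13* lost the call in 20 and *Hoxb9* in 3, with log2 differences of -1.32 to -1.03 and -1.63 to -1.24.

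Across stage, no Hox gene passed the test in WT tendon. Of 29 members 0 were called with edgeR (3 with an unadjusted p under 0.05) and 1, *Hoxb9*, with DESeq2 (-0.85, FDR = 0.0306), beside 5.81% of all 16082 genes with edgeR and 6.99% of 22319 with DESeq2. Log2 fold changes (established minus early) lay between -0.84 ± 0.28 for *Hoxb9* (FDR = 0.0675, edgeR) and 0.66 ± 0.30 for *Hoxa6* (FDR = 0.198, edgeR), with 17 of 29 above 0 (median 0.13). With sex as a covariate 6 of 29 were above 0 and the median was -0.20, so that the direction of the family depended on this covariate. *Hoxb9* was at 21.8 to 97.2 CPM in early and 19.9 to 34.7 CPM in established WT mice, 5 of 7 early mice lying above the highest established one. *Hoxb9* was also called with edgeR without early WT replicate 2 (FDR = 0.0266), without early WT replicate 7 (FDR = 0.0390), and, through the spread shared by all 4 groups, without established Fosl-2(Tg) replicate 5 (FDR = 0.0363) or replicate 7 (FDR = 0.0487). Of the marker lists in WT mice, 2 of 8 keratinocyte markers were called higher and 2 of 12 macrophage markers lower in the established cohort, and 0 of 12 tendon markers were called (6 with an unadjusted p under 0.05, edgeR).

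In Fosl-2(Tg) tendon 10 of 29 members (34.5%) differed between stages, beside 47.8% of all genes, 25.8% higher and 22.0% lower in the established cohort. The share of the family was thus below that of all genes. Of the 10, 5 were lower, namely *Hoxb9*, *Hoxb13*, *Hoxb8*, *Hoxc10* and *Hoxc12*, of which *Hoxb8* is the 1 member outside groups 9 to 13. The other 5 were higher, namely *Hoxa3*, *Hoxa5*, *Hoxa6*, *Hoxa7* and the posterior *Hoxc11*. *Hoxb9* fell from 50.5 to 86.9 CPM (median 66.2) to 5.99 to 23.7 CPM (median 14.8), with no overlap and a log2 fold change of -2.22 ± 0.27 (FDR = 6.38e-07, edgeR). *Hoxb13* fell from 24.2 to 50.8 CPM (median 35.6) to 8.88 to 18.4 CPM (median 12.1), also without overlap, by a log2 fold change of -1.42 ± 0.24 (FDR = 3.89e-05, edgeR). *Hoxc10*, which acts in the lumbosacral region, was at 14.1 to 22.2 CPM in early and 7.22 to 14.4 CPM in established mice, with 6 of 7 established mice below the lowest early one (-0.68 ± 0.13, FDR = 0.000155, edgeR). *Hoxb8* (-0.95 ± 0.30, FDR = 0.0109, edgeR) and *Hoxc12* (-0.61 ± 0.22, FDR = 0.0259, edgeR) overlapped between stages, and so did *Hoxc11* (0.58 ± 0.21, FDR = 0.0249, edgeR).

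In the anterior part of HoxA the direction was the opposite. All 6 tested members of HoxA groups 1 to 8 had a positive log2 fold change in Fosl-2(Tg) mice (0.40 to 1.25), 4 of them called, and 5 of 6 in WT mice (-0.07 to 0.66), 0 called. *Hoxa5* rose from 0.904 to 2.00 CPM (median 1.38) to 2.09 to 4.06 CPM (median 2.72) without overlap, with a log2 fold change of 1.01 ± 0.23 (FDR = 0.000920, edgeR). *Hoxa3* was at 1.36 to 3.67 CPM in early and 3.32 to 10.8 CPM in established mice, 6 of 7 of the latter lying above every early mouse (1.20 ± 0.27, FDR = 0.000789, edgeR), although 11.2% of its exon bases are shared with *Gm28308* and *5730596B20Rik*, genes of the count tables, and 23.7% with any annotated gene. *Hoxa7* (0.75 ± 0.22, FDR = 0.00755, edgeR) was above every early mouse in 5 of 7 established mice. *Hoxa6* was at 0.501 to 1.35 and 0.650 to 2.71 CPM (1.25 ± 0.29, FDR = 0.00101, edgeR). The 4 posterior HoxA genes had log2 fold changes from -0.62 (*Hoxa11*) to -0.28 (*Hoxa9*), none called. The interaction of *Hoxa3*, 0.84 ± 0.40, did not pass (FDR = 0.183, edgeR), and that of *Hoxa5*, 0.73 ± 0.34, did not either (FDR = 0.171, edgeR).

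With sex as a covariate, which in this design rests on the 2 established males, 8 members were called in Fosl-2(Tg) mice, 1 higher (*Hoxa5*) and 7 lower, in place of 5 and 5. They were 27.6% of the members tested, beside 30.4% of all genes in that fit. Without the 2 males there were 12 (41.4%), 7 higher and 5 lower, beside 47.4% of all genes. Over the libraries left out in turn the count ranged from 9 to 13. Of 38 alternatives, *Hoxc11* lost its call in 5 and *Hoxc12* in 2, while *Hoxa3*, *Hoxa6*, *Hoxa7* and *Hoxb8* lost theirs in 1, with sex as the covariate. In Fosl-2(Tg) mice the tendon markers were again lower in the established cohort, 10 of 12 called (median log2 fold change -1.49). The other marker lists held calls as well, beside 47.8% of all genes called in the main fit. The called share was above that of all genes for tendon, erythroid, cartilage and bone, and hair follicle markers. It was below that of all genes for skeletal muscle, Schwann cell, keratinocyte, macrophage, mural, endothelial and adipocyte markers. Erythroid markers were higher, 4 of 5 called (median 3.61), and cartilage and bone markers mostly lower, 5 of 7 called lower and 1 higher (median -2.47). All 19 skeletal muscle markers had a negative value, 3 called (median -1.40). Of the Schwann cell markers 3 of 9 were called higher and 1 lower, of the keratinocyte markers 3 of 8 higher, of the macrophage markers 2 of 12 higher, and of the hair follicle markers 1 of 2 higher. Mural markers held 1 call in either direction among 10, endothelial markers 1 lower among 10 and adipocyte markers 1 higher among 5. The part of these markers in the Hox differences was not tested.

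**Figure D5:**
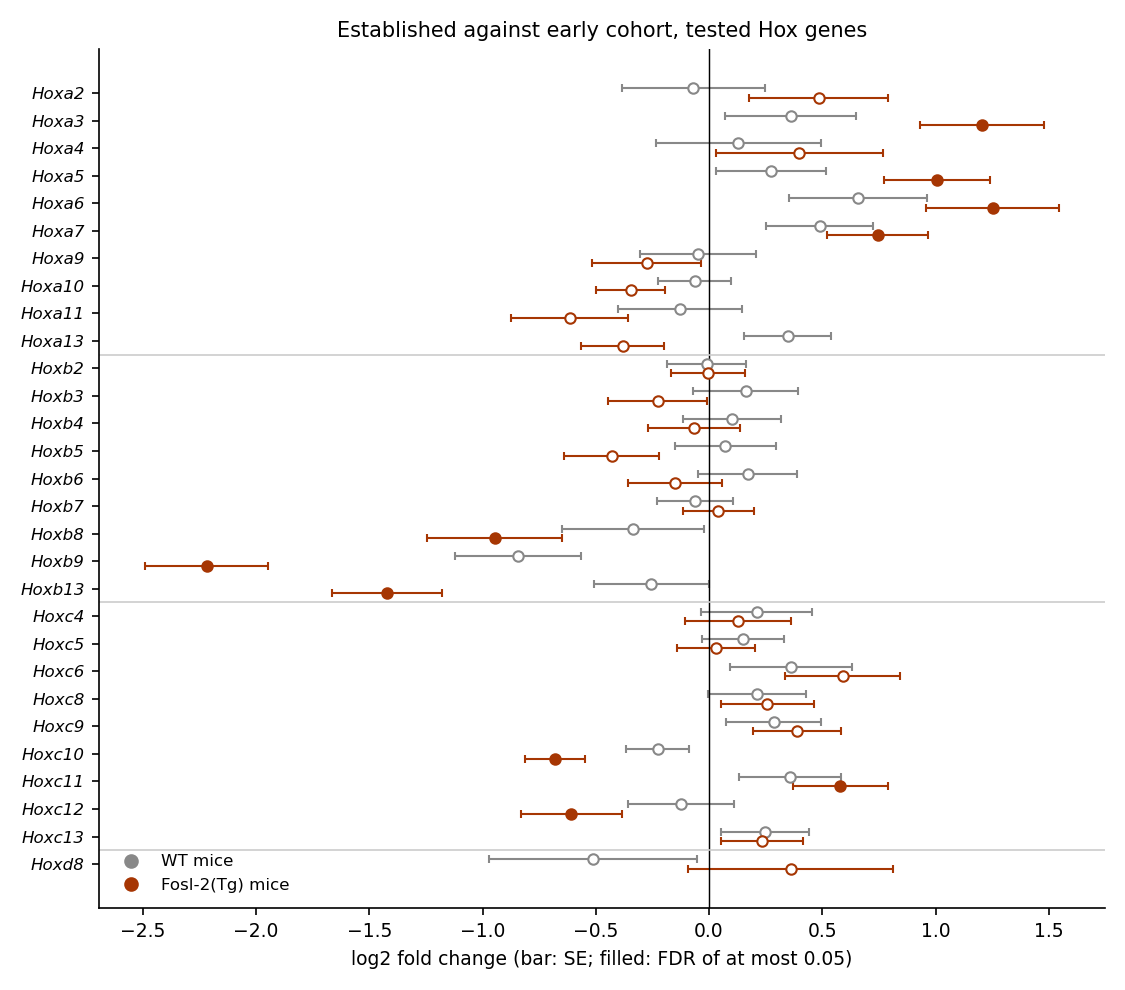
Log2 fold change of the established against the early cohort (horizontal axis) for each Hox gene tested, in WT (grey) and Fosl-2(Tg) mice (red), with SE bars and filled points for an FDR of at most 0.05. In Fosl-2(Tg) mice *Hoxa3*, *Hoxa5*, *Hoxa6*, *Hoxa7* and *Hoxc11* are filled on the right and *Hoxb8*, *Hoxb9*, *Hoxb13*, *Hoxc10* and *Hoxc12* on the left, and no WT point is filled.

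Hox proteins bind DNA with TALE homeodomain cofactors of the Pbx, Meis and Pknox families. Of 9 cofactor genes 8 could be tested, and among them *Pbx2* had a mean of 5.94 CPM per kb and *Pknox1* 3.98. None was called in the early cohort. *Pknox1*, 1 of 8 tested (12.5%, beside 6.51% of all genes), was higher in established Fosl-2(Tg) mice, with 28.1 to 39.6 CPM (median 35.2) against 24.6 to 30.7 CPM in WT (median 28.8), ranges that overlapped, and a log2 fold change of 0.29 ± 0.08 (FDR = 0.0466, edgeR). Its interaction also passed (0.34 ± 0.10, FDR = 0.0400, edgeR). The other 7 showed no call between genotypes. Across stage 0 of 8 were called in WT and 3 of 8 (37.5%) in Fosl-2(Tg) mice, all higher, beside 5.81% and 47.8% of all genes.

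Genes that set Hox expression in the embryo, such as the Cdx factors, retinoic acid enzymes and receptors, were a list of 26, of which 25 were in the tables. Genes of the embryonic tail bud on this list were at very different levels. The 28 libraries held 0 reads of *Cdx2* and *Cdx4*, 8 of *Cdx1*, 3 of *Fgf8* and 2 of *Wnt3a*, whereas *Tbx6* was at 2.19 to 9.44 CPM, *Gdf11* at 3.97 to 15.9 CPM and *Wnt5a* at 4.00 to 14 CPM. The retinoic acid receptor *Rarg* (37.3 CPM per kb), the retinoic acid degrading enzyme *Cyp26a1* (36.5) and *Rxra* (14.4) were the highest. Of those tested 0 of 16 were called between genotypes in the early and 0 of 17 in the established cohort (unadjusted p under 0.05 for 2 and 1, edgeR). Across stage in WT mice 4 of 18 (22.2%) rose, beside 5.81% of all genes, *Cyp26a1* from a median of 59.6 CPM to 108 CPM (log2 fold change 1.20 ± 0.33, FDR = 0.0309, edgeR) and *Cyp26c1*, *Rarb* and *Nr6a1* by 0.90, 0.80 and 0.53. In Fosl-2(Tg) mice 5 rose, among them *Cyp26c1* (log2 fold change 1.68) and *Tbx6* (1.12), and 2 fell, *Gdf11* (-0.89) and *Aldh1a1* (-1.01). These 7 of 18 (38.9%) stand beside 47.8% of all genes.

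Polycomb and trithorax proteins keep Hox genes off or on after the embryo. All 36 genes of this list were tested, the highest per kb being *Kmt2d* (14.9 CPM per kb), *Kmt2a* (11.8) and *Cbx6* (11.0). Between genotypes 0 were called early and 1 of 36 (2.78%, beside 6.51% of all genes) in the established cohort, *Ezh1*, a catalytic subunit of Polycomb repressive complex 2 (0.29 ± 0.08, FDR = 0.0470, edgeR), while *Eed* of the same complex passed in the interaction (0.55 ± 0.16, FDR = 0.0382, edgeR). In WT mice *Kdm6a*, an X-linked demethylase, was higher in the established cohort (0.87 ± 0.12, FDR = 0.000285, edgeR), where 5 of 6 WT mice were female, and was the 1 call among 36. In Fosl-2(Tg) mice 19 of 36 (52.8%) were called across stage, beside 47.8% of all genes, 16 higher, among them *Cbx7* (1.90) and *Kdm6a* (1.04), and 3 lower, among them *Cbx8* (-0.68). Of 42 further regional transcription factors, *Meox2* (37.7 CPM per kb), *Prrx1* (28.1) and *Twist1* (24.6) were the highest. The hindlimb gene *Pitx1* had at most 0.514 CPM in any mouse. None of this list was called between genotypes in the early (26 tested, 0 with an unadjusted p under 0.05) or the established cohort (25 tested, 3 with an unadjusted p under 0.05). Across stage 2 of 28 (7.14%) were called in WT mice, both higher, and 11 of 28 (39.3%) in Fosl-2(Tg) mice, 8 higher and 3 lower, beside 5.81% and 47.8% of all genes.

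Within the clusters, 3 annotated non-coding genes were in the tables, all in HoxA. *9530018H14Rik* lies on the strand of *Hoxa13*, 161 bases beyond its end (GRCm39 chr6:52233198-52234440). It was lower in established Fosl-2(Tg) mice, at 2.02 to 4.67 CPM against 4.25 to 8.56 CPM in WT (-0.82 ± 0.20, FDR = 0.0304, edgeR), and reads beyond the annotated end of *Hoxa13* cannot be told apart from reads of this gene. *Gm28308* and *5730596B20Rik*, which overlap *Hoxa3*, rose between stages in Fosl-2(Tg) mice (1.10 ± 0.27, FDR = 0.00180, and 0.93 ± 0.33, FDR = 0.0211, edgeR). Of the 40 nearest protein-coding neighbours of the clusters, 3 of 37 tested (8.11%) were called between established genotypes, a share near the 6.51% of all genes. They were the coat protein gene *Copz2* beside HoxB lower (-0.86 ± 0.19, FDR = 0.0251, edgeR) and *Nfe2l3* and *Snx10* beside HoxA higher (0.75 ± 0.16, FDR = 0.0197, and 0.49 ± 0.14, FDR = 0.0487, edgeR). Their distance from the clusters is 481586 bases for *Copz2*, 693774 for *Nfe2l3* and 562422 for *Snx10*. *Copz2* was at 43.9 to 63.7 CPM in established WT and 14.4 to 44.4 CPM in established Fosl-2(Tg) mice.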

How the data were processed

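RNA of tail tendon fascicles from 28 mice was depleted of ribosomal RNA and sequenced in read pairs with a library kit that does not mark strand. The deposited values are raw counts per gene, which the authors made by mapping to GRCm39 with STAR and counting over GENCODE genes with featureCounts. The settings for strand and for reads on several genes are not given in the sources used here. Of 25719 gene IDs, 25505 were named from the annotation and 214 were not.

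Replicates were separate mice. Counts were scaled by TMM to CPM, divided by kilobases of merged exons where genes are compared, and tested with edgeR 4.0.16 in R 4.3.3 (quasi-likelihood test, genes kept by filterByExpr with a minimum count of 10 and a minimum total of 15, no covariates, Benjamini-Hochberg adjustment over all genes tested, calls at an FDR of at most 0.05). Genotypes were compared within each cohort. Stage and interaction were contrasts of 1 fit of the 28 libraries, so these comparisons share samples. The fits were tested on simulated data. DESeq2 1.42.0, another scaling, other filters, sex, the replicate number as a block and libraries left out were alternatives, and the choice to leave out 6 libraries with at least 20000 CPM of muscle markers was made after seeing the data. Floors of 3 counts cover counting error only. The closest 2 libraries of each group differed by a chi-square of at least 7.02 per degree of freedom, so that none within a group repeated another up to counting error. Libraries of different groups were not compared in this way. In the early cohort the deviations of same-numbered mice correlated in all 7 pairs (r 0.129 to 0.363). Differently numbered mice were not correlated, so whether the numbers pair the samples was not tested, and no source names anything they share. Of the 6 established pairs 4 correlated (r 0.296 to 0.688) and those of replicates 2 (0.0568) and 6 (-0.223) did not, so that not every pair did.

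The members and gene lists were chosen with earlier results of these data known. Levels by group are given for the 3 highest members of each cluster, for group 13, and for up to 6 called members per comparison. From the other lists, up to 4 genes called between genotypes and the 3 highest per kilobase are named, and other genes named there were chosen after their values were seen. A few items are not reported here. Promoter windows were read from GRCm39 at the start of the Ensembl canonical transcript.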

Additional observations from a re-analysis of the deposited data

Results flagged for a closer look

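Among 88 groups of 4 to 10 mice examined for a single distant mouse (22 measures), 6 held one, and chance gives about 1 in 20. Early Fosl-2(Tg) replicate 5 had 1.36 CPM of *Hoxa3*, with the others at 2.67 to 3.67 CPM. Early WT replicate 2 had 3.85 CPM of *Hoxa5*, with the others at 1.33 to 2.17 CPM. Early Fosl-2(Tg) replicate 1 had 19.3 CPM of *Hoxc13*, with the others at 7.79 to 13.1 CPM. Established Fosl-2(Tg) replicate 6 had 1.69 CPM of *Hoxd8*, with the others at 0.128 to 0.723 CPM. The summed Hox level of established Fosl-2(Tg) replicate 5 was 62.8 CPM per kb, with the others at 102 to 127. The HoxB share of established WT replicate 3 was 32.8%, with the others at 38.4% to 40.0%. The genotype difference changed between cohorts for *Hoxb9* (log2 interaction -1.37) and *Hoxb13* (-1.17), by the edgeR test of the interaction itself, 2 of 29 members (6.90%) beside 7.43% of all genes. *Hoxb13* lost the call in 20 of 37 alternatives and *Hoxb9* in 3, and both lost it without the 2 established males and without the libraries rich in muscle markers. Those sets of libraries share the established WT male.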

How the results depend on the processing

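Of 743 log2 fold changes of single Hox genes under the alternatives, 667 kept their direction and side of the threshold, 60 lost the call, 6 gained one and 10 reversed. In the established cohort DESeq2 called 5 of 39 members tested (12.8%), with *Hoxb5* and *Hoxc10* added, where edgeR tested 29. The share of all genes that DESeq2 called in this comparison is not given here, so the count cannot be set against it. Without the libraries rich in muscle markers 0 were called, and the median log2 fold change of the members was -0.45 in place of -0.34. That median was -0.23 without established Fosl-2(Tg) replicate 5 and -0.25 without the 2 established males. Leaving out single libraries gave 0 to 4 calls in the established and 0 in the early cohort. Across stage it gave 0 to 1 in WT and 9 to 13 in Fosl-2(Tg) mice, and in the interaction 0 to 2. Across stage in WT, DESeq2 called 1 member, and with sex as a covariate 6 of 29 members were above 0 in place of 17. In the interaction the replicate block gave 1 call, and leaving out the 2 established males or the libraries rich in muscle markers gave 0 each. The replicate block changed no other count of calls by over 1.5 times. The near-zero early log2 fold change of *Hoxa13* reversed to -0.085 with the replicate block and to -0.18 without the libraries rich in muscle markers, it ranged from -0.065 to 0.074 without single libraries, and its stage difference in WT reversed to -0.44 with sex as a covariate; the cause was not tested. With coding length in place of exon length the mean share of groups 9 to 13 was 60.8% in early WT, 65.8% in early Fosl-2(Tg), 56.4% in established WT and 52.1% in established Fosl-2(Tg) mice, 2 of which were below 50%. At 0.5 and 2 CPM the members detected numbered 29 and 25. Depth limits the HoxD genes, of which *Hoxd8* alone had enough counts for a test, and not in the early cohort.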
